A study of Mus musculus with 4 samples.

Results

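The contractile machinery of smooth muscle was followed in RNA from the mouse dentate gyrus through 10 genes: Acta2, Myh11, Cnn1, Myl9, Tagln, Actg2, Des, Lmod1, Mylk and Smtn. They were picked by symbol, with earlier results of these data known, and all 10 are among the 18042 genes of the deposited table. RNA came from 2 Eed cKO animals, with a conditional knockout of Eed, and from 2 WT animals. All were C57BL/6 mice at postnatal day 14. Eed is a core subunit of Polycomb repressive complex 2, an enzyme complex that methylates lysine 27 of histone H3 and keeps its target genes silent. The labels name neither the driver of the deletion nor the cells in which it acts, so it is not known here whether blood vessel cells carried it.

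Smooth muscle cells of the brain wrap arteries and arterioles and set their diameter. Their contraction begins when calcium activates myosin light chain kinase, which phosphorylates the regulatory light chain of smooth muscle myosin so that myosin can pull on actin filaments. Many genes of this machinery carry CArG boxes, sites bound by serum response factor (SRF), whose cofactor myocardin drives the smooth muscle form of the cell. Pericytes, the mural cells of capillaries, hold less of this machinery. In whole tissue, fewer cells of a type and less RNA per cell cannot be told apart.

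Whole read counts of each library were recovered from the deposited group means, and the libraries are called Eed cKO A, Eed cKO B, WT A and WT B. Their totals ran from 17263273 to 17789587 counts. Eed had 133 and 142 counts in Eed cKO A and B, against 251 and 301 in WT A and B, a fall to 50.2% of WT (limma, adjusted p = 0.0189), although limma lost this call without Eed cKO A (adjusted p = 0.128) or Eed cKO B (0.124). Prox1, which marks dentate granule neurons, had 925 and 860 counts in Eed cKO against 3381 and 4482 in WT. This tissue marker was present in every library but fell to 22.8% of WT (limma, adjusted p = 0.00488). Whether the share of granule neurons differed was not tested. Xist, a transcript of the inactive X chromosome, had 3809 and 8 counts in Eed cKO, against 11 and 8 in WT. Xist was thus high in Eed cKO A alone, as in female tissue, and no fit included sex. Ttr, abundant in choroid plexus, had 35706 and 23697 counts in Eed cKO, against 33234 and 110 in WT.

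All 10 contractile genes were lower in both Eed cKO libraries than in both WT libraries, an arrangement found in 29.0% of the 15020 genes tested. Tagln and Actg2 reached the minimum count for testing through the WT libraries alone, so for them the filter fixed this arrangement. Summed over the 10 genes, there were 1260 and 1385 counts in Eed cKO A and B, against 3900 and 4170 in WT A and B. The summed normalized count (count divided by the library's size factor) was 1323 ± 94.1 in Eed cKO and 4010 ± 206 in WT (SD, n = 2 each), so Eed cKO held 33.0% of the WT level. Acta2 supplied much of this sum, and without it the other 9 genes stood at 44.9% of WT.

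In limma, 8 of the 10 genes fell and none rose at an adjusted p of 0.05. Over all tested genes, 2.90% were called lower and 3.54% higher. The 10 genes were chosen with earlier results of these data known, so these counts are a description and not a test of the set. A gene was tested where 2 or more libraries reached 10 normalized counts. Tagln and Actg2 met that minimum through the WT libraries alone, so the filter fixed their direction, and Cnn1 met it in both WT libraries and narrowly in Eed cKO B. The other 7 reached it in every library. Of these 7, Acta2, Myh11, Myl9, Lmod1 and Mylk fell, and Des and Smtn did not pass. The median log2 fold change over the 7 was -1.16, beside 0.00 (-0.0032 before rounding) over all tested genes.

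**Figure D1:**
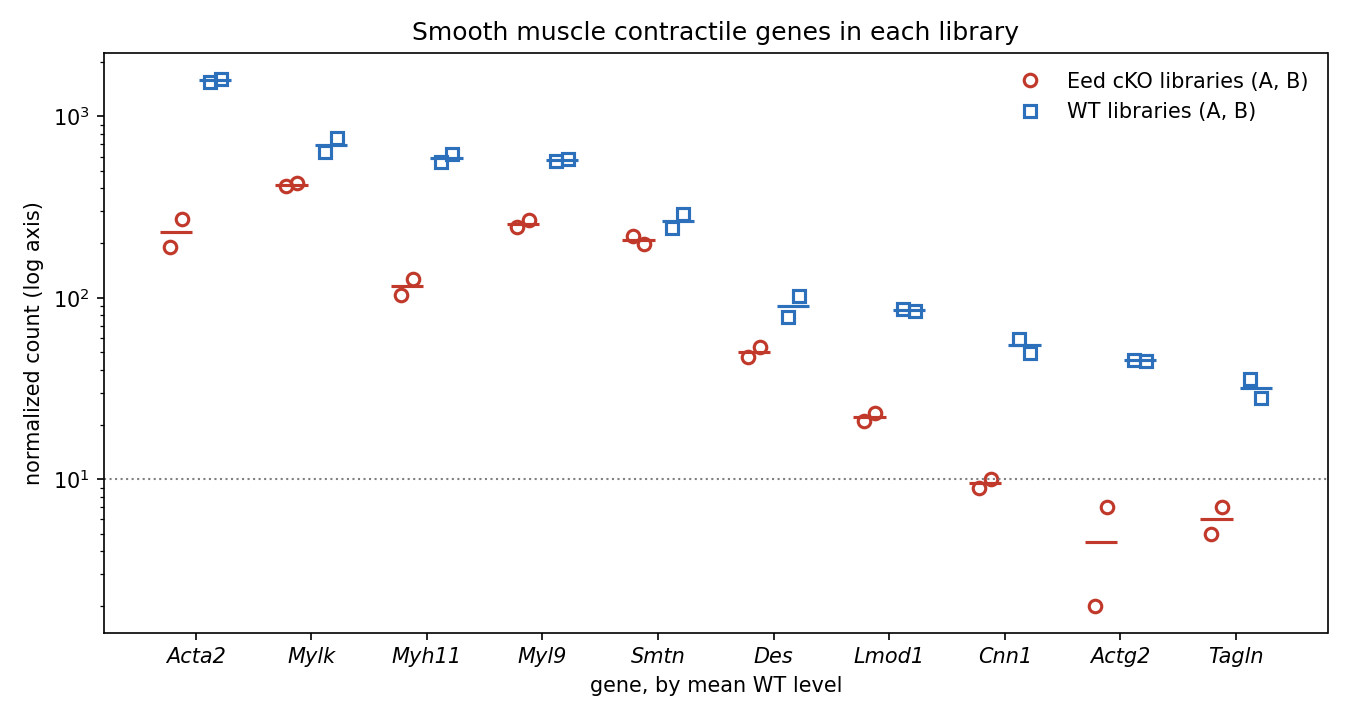
Normalized counts (log axis) of the 10 contractile genes in each Eed cKO library (red circles) and each WT library (blue squares), with bars at the group means and a dotted line at the test's minimum of 10. In each gene both Eed cKO points lie under both WT points, with the widest gaps in Acta2 and Actg2 and the narrowest in Smtn.

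Acta2 encodes smooth muscle alpha actin, the main actin of vascular smooth muscle (ENSMUSG00000035783; GRCm38 chromosome 19, 34241090 to 34255590, minus strand). It had 192 and 270 counts in Eed cKO A and B, against 1568 and 1603 in WT A and B. The WT libraries differed little from each other, and the Eed cKO libraries lay far below them. Acta2 averaged 231 ± 56.2 normalized counts in Eed cKO and 1575 ± 31.0 in WT (SD, n = 2 each), or 14.7% of WT (limma, log2 fold change -2.78 ± 0.16 SE, adjusted p = 0.00487). By its p-value it ranked 8 among the 15020 tested genes, and in the authors' deposited table it ranked 3 of 18042.

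Actg2 encodes gamma smooth muscle actin, known best from gut and bladder muscle (chromosome 6, 83512905 to 83536265, minus strand). It had 2 and 7 counts in Eed cKO, against 46 and 45 in WT. The exact 95% Poisson intervals of the Eed cKO counts, 0.242 to 7.22 and 2.81 to 14.4, end well below those of WT, which start at 32.8 (counting error only). Its level stood at 9.98% of WT, the lowest share among the 10 genes (limma, log2 fold change -3.24 ± 0.53 SE, adjusted p = 0.0250). Acta2 and Actg2 encode near-identical proteins, and how the authors counted reads that match several genes is not given in the sources used here, so the split between these actins is uncertain.

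Actb and Acta1, actins from outside smooth muscle, were not called. Actb, the cytoplasmic beta actin, had 32960 and 35885 counts in Eed cKO against 38913 and 27983 in WT. Acta1, the skeletal muscle actin, had 105 and 137 counts in Eed cKO against 129 and 106 in WT. For both, the groups overlapped and the test was not passed (limma, adjusted p = 0.845 for Actb and 0.909 for Acta1).

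**Figure D2:**
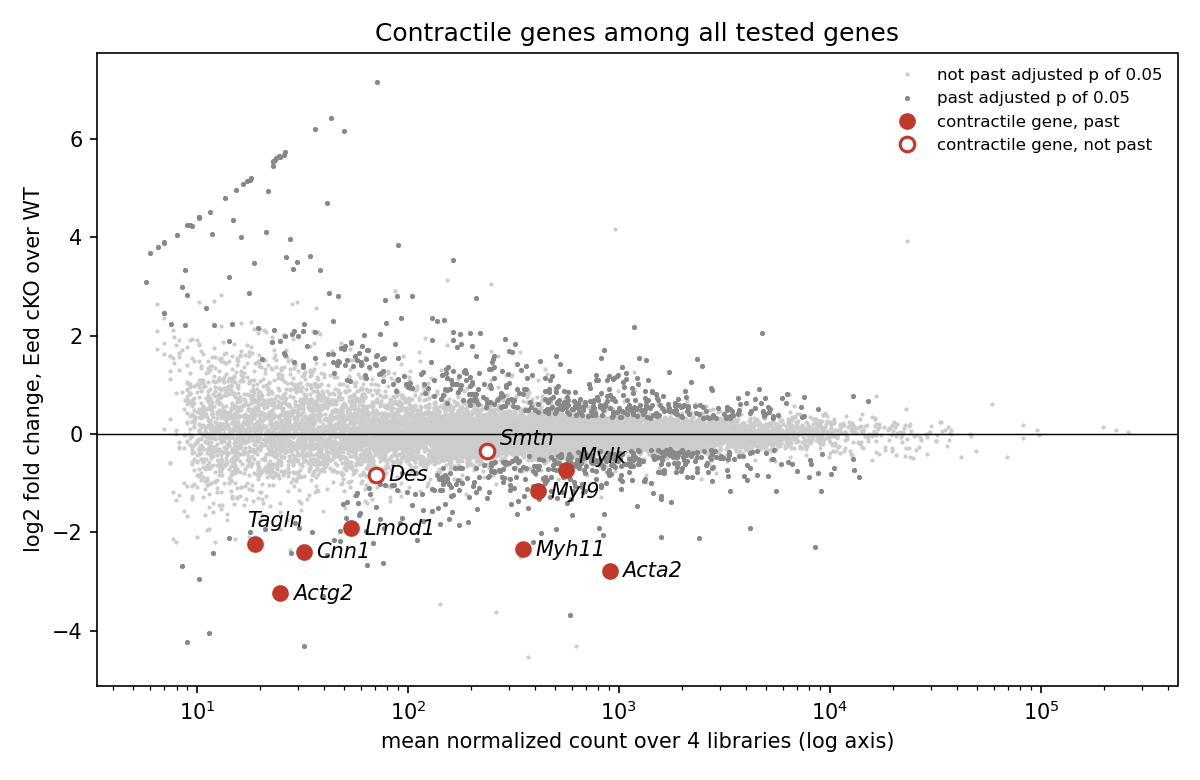
Fold change (log2, Eed cKO over WT) against mean normalized count (log axis) for all 15020 tested genes, with genes past an adjusted p of 0.05 in dark grey and the 10 contractile genes in red (filled where past the threshold). Acta2 and Myh11 lie at the lower edge of the cloud for their level, while Smtn and Des lie within it.

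The myosin genes fell to different degrees. Myh11 encodes the smooth muscle myosin heavy chain, the most restricted marker of mature smooth muscle (chromosome 16, 14194535 to 14291372, minus strand). It had 104 and 127 counts in Eed cKO, against 565 and 619 in WT, with a wide gap between the groups. Myh11 averaged 116 ± 16.8 normalized counts in Eed cKO and 588 ± 40.3 in WT (SD, n = 2 each), or 19.7% of WT (limma, log2 fold change -2.34 ± 0.14 SE, adjusted p = 0.00488). The nonmuscle heavy chain gene Myh9 had 1937 and 1772 counts in Eed cKO against 1835 and 1949 in WT (limma, adjusted p = 0.899).

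Myl9 encodes the myosin regulatory light chain of smooth muscle (chromosome 2, 156775420 to 156781658, plus strand), and Mylk the kinase that phosphorylates it (chromosome 16, 34745210 to 35002420, plus strand). Myl9 had 246 and 266 counts in Eed cKO, against 572 and 585 in WT, and fell to 44.6% of WT (limma, log2 fold change -1.16 ± 0.10 SE, adjusted p = 0.00605). Mylk had 414 and 425 counts in Eed cKO, against 640 and 763 in WT, and fell to 60.2% (limma, log2 fold change -0.72 ± 0.11 SE, adjusted p = 0.0209). Both genes thus kept a larger share of their WT level than Myh11 did, and the 95% intervals show no overlap: 37.9% to 52.6% of WT for Myl9 and 50.2% to 72.9% for Mylk, beside 15.5% to 25.0% for Myh11. Antisense transcripts share exon bases with Mylk, and whether counting used strand is not known.

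The upstream window of Myl9 carried an exact CArG box, and that of Acta2 only boxes with 1 G or C among the central 6 letters. They are shown because no other window searched held either form. RefSeq (GRCm38.p6) gave promoter windows for 7 of the 10 genes: Acta2, Myl9, Des, Lmod1, Cnn1, Smtn and Mylk. In the 250 bases before each start, an exact CArG box was read as CC, 6 letters that are A or T, and GG. The reverse complement of this pattern has the same form. Boxes are in capitals with 10 flanking bases on each side, 5′ to 3′ on the gene's strand.
Myl9, chr2:156775293-156775322: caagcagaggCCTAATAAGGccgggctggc
Myl9, chr2:156775355-156775384: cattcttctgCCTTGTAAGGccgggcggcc
Acta2, chr19:34255438-34255467: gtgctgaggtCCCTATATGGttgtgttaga
Acta2, chr19:34255388-34255417: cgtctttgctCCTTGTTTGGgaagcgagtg
The Myl9 boxes begin 161 and 99 bases before the RefSeq start, and the Acta2 boxes 84 and 34 bases before it. The first Myl9 box is exact, and the other 3 have 1 G or C among the central 6 letters. An exact box was present in 1 of the 7 windows and in 1.47% of all 32851 windows, and a box with up to 1 G or C in 2 of the 7 and in 8.59%. Des, Lmod1, Cnn1, Smtn and Mylk had neither form in this window. A GENCODE transcript of Acta2 starts further upstream than the RefSeq start used here, so its boxes also lie within an annotated exon.

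Among the genes for proteins that sit on actin filaments, Cnn1, Tagln and Lmod1 fell and Smtn did not pass. Cnn1 encodes calponin, which binds actin and restrains myosin (chromosome 9, 22099216 to 22109630, plus strand). It had 9 and 10 counts in Eed cKO, against 60 and 50 in WT. Tagln encodes transgelin (SM22), an actin-binding protein of smooth muscle (chromosome 9, 45929619 to 45936058, minus strand). It had 5 and 7 counts in Eed cKO, against 36 and 28 in WT. Both genes had few reads in Eed cKO, at 17.4% of WT for Cnn1 and 18.9% for Tagln (limma, log2 fold changes -2.40 ± 0.29 SE and -2.23 ± 0.37 SE, adjusted p = 0.0131 and 0.0257). Tagln shares exon bases with Pcsk7 on the opposite strand, which had 434 and 439 counts in Eed cKO and 419 and 450 in WT.

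Lmod1 encodes leiomodin, which nucleates actin filaments in smooth muscle (chromosome 1, 135324807 to 135368065, plus strand). It had 21 and 23 counts in Eed cKO, against 88 and 85 in WT, and fell to 25.6% of WT (limma, log2 fold change -1.92 ± 0.22 SE, adjusted p = 0.0121). Smtn encodes smoothelin, an actin-associated protein of contractile smooth muscle (chromosome 11, 3517523 to 3540612, minus strand). It had 220 and 197 counts in Eed cKO, against 246 and 289 in WT, a narrow gap. Smtn averaged 209 ± 15.4 normalized counts in Eed cKO and 266 ± 31.3 in WT (SD, n = 2 each), or 78.5% of WT, and did not pass (limma, log2 fold change -0.35 ± 0.14 SE, adjusted p = 0.188). The unadjusted 95% interval of its level ran from 62.5% to 99.1% of WT.

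Des encodes desmin, the intermediate filament protein of muscle cells, which pericytes also carry (chromosome 1, 75360329 to 75368579, plus strand). It had 47 and 53 counts in Eed cKO, against 79 and 103 in WT. Its level stood at 55.3% of WT, with an unadjusted 95% interval from 38.7% to 81.6%, and the test was not passed (limma, log2 fold change -0.83 ± 0.22 SE, adjusted p = 0.0872).

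Because the genes fell unequally, their order and shares differed between the groups. Per kilobase of merged exon length, WT levels ran from 717 ± 14.1 normalized counts for Acta2 and 495 ± 9.88 for Myl9, through Myh11, Mylk, Smtn, Actg2, Des, Lmod1 and Cnn1, to 16.0 ± 2.76 for Tagln (SD, n = 2). In Eed cKO the order began with Myl9 at 220 ± 13.1 and Acta2 at 105 ± 25.6 normalized counts per kilobase, went on with Smtn, Mylk, Myh11, Des, Lmod1, Cnn1 and Tagln, and ended with Actg2 at 2.90 ± 2.28. The libraries of neighbouring genes overlapped in WT for Mylk and Smtn, for Des and Lmod1 and for Lmod1 and Cnn1. In Eed cKO they overlapped for Myh11 and Des, for Cnn1 and Tagln and for Tagln and Actg2. The orders take the counts as given, although the split between Acta2 and Actg2 is uncertain. Tagln, Des, Mylk and Smtn also share exon bases with genes on the opposite strand, and whether counting used strand is not known. How this affected the orders was not tested. Acta2 supplied 15.2% and 19.5% of the 10 genes' counts in Eed cKO A and B, against 40.2% and 38.4% in WT A and B. Mylk supplied 32.9% and 30.7% in Eed cKO, against 16.4% and 18.3% in WT. Smtn supplied 17.5% and 14.2% in Eed cKO, against 6.31% and 6.93% in WT.

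Acta2 and Myh11 were called lower whichever library was left out. With Eed cKO A left out, limma called only these 2 of the 10 genes (0.0474% of all tested genes called lower), and 9 of the 10 were lower at an unadjusted p under 0.05 (8.35% of all genes). With Eed cKO B left out it again called only Acta2 and Myh11 (0.149% of all genes), and 9 were lower at an unadjusted p under 0.05 (6.86%). edgeR called 3 with Eed cKO A left out (0.617% of all genes) and 4 with Eed cKO B left out (0.428%), including Acta2, Myh11 and Myl9 each time. With either WT library left out, Tagln and Actg2 had too few counts to be tested. Of the remaining 8, limma called 6 without WT A (4.30% of all genes) and 6 without WT B (2.95%), while edgeR called 7 (5.46%), with Des among them, and 6 (3.42%). With all libraries, the same 8 genes were called lower under edgeR (2.87% of all genes), DESeq2 (3.44%), TMM scaling (2.88%) and pseudocounts of 0.5 (2.86%) and 5 (2.96%). With no filter on low counts 7 of 10 were called (1.12% of all genes), Actg2 being lost, and with a minimum of 50 counts 5 of the 7 that could be tested (3.54%). The authors' deposited table, whose adjusted p is below 0.05 and fold change negative in 3.23% of its 15043 genes with an adjusted p below 1, also calls 8 of the 10, the exceptions being Des and Smtn.

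Other genes of the smooth muscle cytoskeleton were also lower in part. Of 18 tested, 8 fell, among them Tpm2, Csrp1 and Aebp1, none rose and 10 did not pass, with a median log2 fold change of -0.57. For this list and those below, the limma shares over all tested genes were 2.90% called lower and 3.54% called higher. Csrp1, a LIM-domain protein of smooth muscle, had 804 and 1183 counts in Eed cKO against 2479 and 2638 in WT (limma, 39.1% of WT, adjusted p = 0.0144). Tpm2, the beta chain of tropomyosin, had 116 and 124 counts in Eed cKO against 236 and 249 in WT (limma, 49.8% of WT, adjusted p = 0.0145). Aebp1, a protein linked to smooth muscle and collagen-rich matrix, had 452 and 399 counts in Eed cKO against 833 and 1099 in WT (limma, 44.3% of WT, adjusted p = 0.0143). Left out in turn, Eed cKO A, Eed cKO B, WT A and WT B left 0, 1, 9 and 4 of these genes lower in limma, and without Eed cKO A edgeR called 2. With no filter on low counts limma called 3 of the 18 lower, namely Csrp1, Aebp1 and Tpm2.

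Among 17 nonmuscle paralogues and related filament genes of the contractile genes, 1 fell, beside 2.90% of all tested genes called lower. None rose and 16 did not pass, with a median log2 fold change of -0.02. The one that fell was Smtnl2, a relative of Smtn, with 68 and 50 counts in Eed cKO against 218 and 138 in WT (limma, 33.4% of WT, adjusted p = 0.0316). Its call was lost with Eed cKO A or Eed cKO B left out, in limma and in edgeR, and with no filter on low counts (limma, adjusted p = 0.0707).

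Of 23 tested signalling genes upstream of contraction, Rgs4 and Adra1b rose in limma, none fell and 21 did not pass, with a median log2 fold change of -0.07. Rgs4, a regulator of G protein signalling that neurons also express, had 7605 and 7278 counts in Eed cKO against 4333 and 4655 in WT (limma, 1.67-fold, adjusted p = 0.00966). Adra1b, an alpha-1 adrenergic receptor, had 198 and 193 counts in Eed cKO against 122 and 89 in WT (limma, 1.87-fold, adjusted p = 0.0459). Both calls were lost with Eed cKO A or Eed cKO B left out, in limma and in edgeR, and that of Adra1b also without WT B. With no filter on low counts, limma also lost the call of Adra1b (adjusted p = 0.0846). With all libraries DESeq2 called 1 of the 23 lower (Ppp1cb, a catalytic subunit of myosin phosphatase), and leaving out 1 WT library gave 1 or 2 called lower in limma or edgeR.

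Of 11 tested regulators of the smooth muscle programme, Gata6 and Nr2f2 rose, none fell and 9 did not pass. Gata6, a factor of heart and vascular smooth muscle, had 37 and 28 counts in Eed cKO against 7 and 6 in WT (limma, 5.03-fold, adjusted p = 0.0242). It was over the minimum through the Eed cKO libraries alone. Nr2f2, a nuclear receptor that interneurons and venous endothelium also express, had 2246 and 1890 counts in Eed cKO against 1406 and 1299 in WT (limma, 1.54-fold, adjusted p = 0.0235). With Eed cKO A or Eed cKO B left out, Gata6 could not be tested and limma lost the call of Nr2f2, which was also lost with no filter on low counts (limma, adjusted p = 0.0567). Without WT A, limma called 3 of the regulators higher and 1 lower. Srf had 1278 and 1105 counts in Eed cKO against 1557 and 1457 in WT (limma, adjusted p = 0.0922). Myocd, which encodes myocardin, was too low to be tested, with 0 and 1 count in Eed cKO against 3 and 5 in WT.

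**Figure D3:**
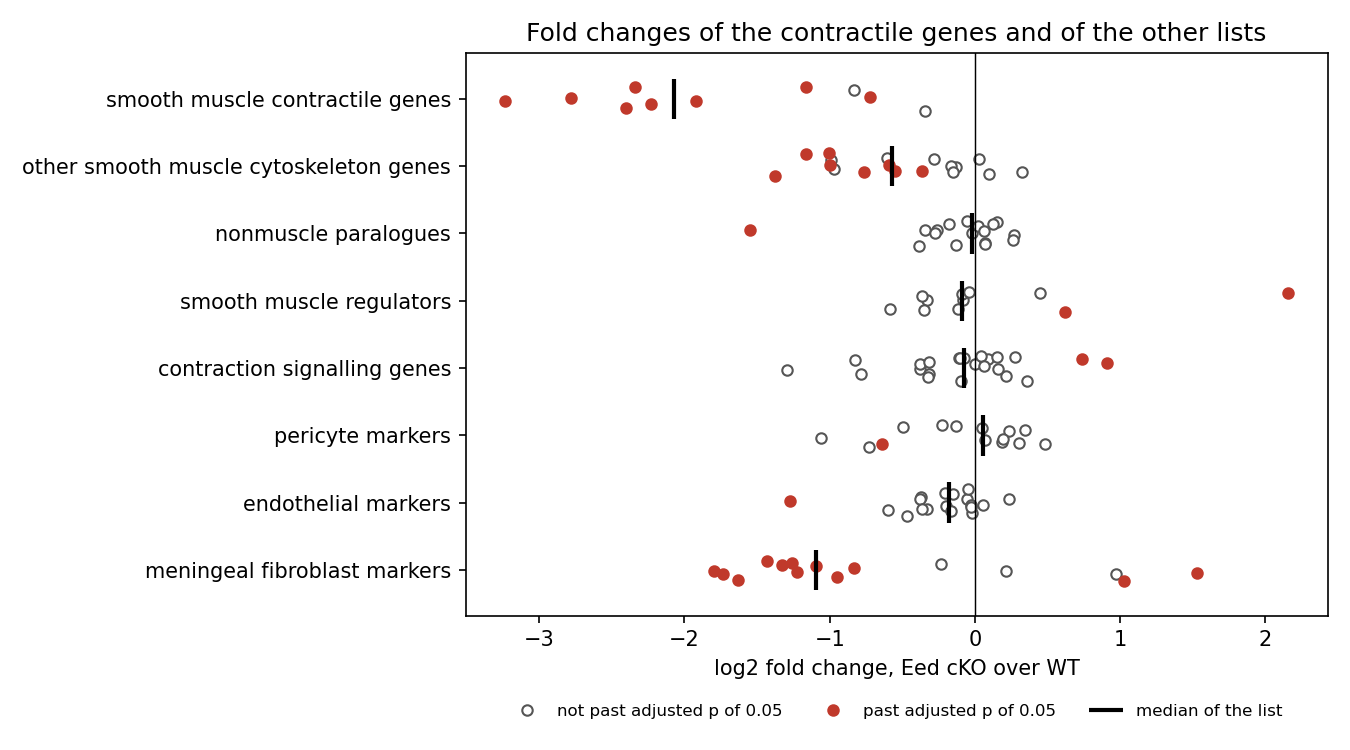
Fold change (log2, Eed cKO over WT) for each tested gene of 8 lists, filled where past an adjusted p of 0.05, with black bars at list medians and vertical scatter added for legibility. The contractile genes all lie below 0, the meningeal fibroblast markers have a median of -1.09, and the medians of the nonmuscle, regulator, signalling, pericyte and endothelial lists lie between -0.18 and 0.06.

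Few markers of other vessel cells passed the test. Of 14 pericyte markers, 1 (Mcam) fell, beside 2.90% of all tested genes called lower. None rose and 13 did not pass, with a median log2 fold change of 0.06. Mcam, an adhesion molecule that smooth muscle also carries, had 515 and 466 counts in Eed cKO against 763 and 778 in WT (limma, 64.1% of WT, adjusted p = 0.0152). The pericyte list summed to 102% and 90.5% of the WT mean in Eed cKO A and B, and to 85.4% and 115% in WT A and B, so the groups overlapped. Rgs5, a pericyte gene with many reads, had 5606 and 4378 counts in Eed cKO against 3593 and 5005 in WT. It supplied 5592 and 4394 of the list's 11222.4 and 9926.98 normalized counts in Eed cKO A and B. In WT A and B it supplied 3560 and 4987 of 9371.24 and 12566.5. The overlap and the ratio below thus follow Rgs5 in large part and need not describe the other markers. Set against the summed counts of the pericyte list in the same library, the 10 contractile genes amounted to 11.2% and 14.0% in Eed cKO A and B, against 41.2% and 33.1% in WT A and B.

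Of 18 endothelial markers, 1 (Vwf) fell, beside 2.90% of all tested genes called lower. None rose and 17 did not pass, with a median log2 fold change of -0.18. Vwf, von Willebrand factor, had 229 and 326 counts in Eed cKO against 627 and 709 in WT (limma, 41.8% of WT, adjusted p = 0.0170), and limma lost this call without Eed cKO A. The endothelial list summed to 85.2% and 85.0% of the WT mean in Eed cKO, and to 90.3% and 110% in WT. With all libraries, edgeR and DESeq2 each called 2 endothelial markers lower (Vwf and Pecam1), limma with a minimum of 50 counts called 3 (Ocln in addition), and 16 of the 18 had a negative fold change. Relative to the endothelial sum, the contractile genes stood at 9.55% and 10.6% in Eed cKO, against 27.7% and 24.5% in WT. DESeq2 called 2 pericyte markers lower, Mcam and Vtn. Without WT A, limma called 3 pericyte and 6 endothelial markers lower. With Eed cKO A left out it called none of either list, and with Eed cKO B left out 0 pericyte markers and 1 endothelial marker.

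Most meningeal fibroblast markers were lower in Eed cKO, with a negative fold change in 11 of the 15 tested. Of 16 listed and 15 tested, 10 fell (Lum, Col1a1, Col1a2, Col3a1, Slc6a13, Aldh1a2, Ogn, Fmod, Slc22a6 and Igf2), 2 rose (Dcn and Col6a1) and 3 did not pass, with a median log2 fold change of -1.09. Col3a1, a fibrillar collagen, had 437 and 393 counts in Eed cKO against 1189 and 1404 in WT (limma, 32.2% of WT, adjusted p = 0.00488). Col1a2, a chain of type I collagen, had 914 and 875 counts in Eed cKO against 2041 and 2511 in WT (limma, 39.6% of WT, adjusted p = 0.00605). Col6a1, a chain of type VI collagen, went the other way, with 3530 and 3412 counts in Eed cKO against 1369 and 1067 in WT (limma, 2.87-fold, adjusted p = 0.00574).

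The meningeal list summed to 84.3% and 83.4% of the WT mean in Eed cKO, and to 90.6% and 109% in WT, with no marker at 0 in any library. With no filter on low counts limma called 6 of the markers lower. The contractile genes amounted to 11.8% and 13.2% of that sum in Eed cKO, against 33.7% and 30.0% in WT. Col6a1 and Dcn, which rose, held up this sum in Eed cKO. Col6a1 supplied 3521 and 3424 of its 10685.7 and 10565.3 normalized counts in Eed cKO, against 1356 and 1063 of 11476.5 and 13863.9 in WT. Dcn supplied 1632 and 1655 in Eed cKO, against 742 and 876 in WT. The sum and the ratio thus do not describe the markers that fell. The part of meningeal tissue in the fall of the contractile genes was not tested. Left out in turn, Eed cKO A, Eed cKO B, WT A and WT B left 0, 1, 9 and 9 of the meningeal markers lower in limma, and edgeR called 6 lower with Eed cKO A left out and 5 with Eed cKO B left out. Neither Dcn nor Col6a1 was called in limma when an Eed cKO library was left out, and both were in edgeR. Choroid plexus markers followed no group. The 12 summed to 208% and 139% of the WT mean in Eed cKO, and to 197% and 2.84% in WT. Slc4a5 was at 0 in WT B. Ttr made up most of these sums outside WT B. It supplied 35618 of 37523 normalized counts in Eed cKO A, and 32926 of 35511 in WT A. In WT B it supplied 110 of 512, and the percentages thus mostly follow Ttr. None of the 12 passed the limma test with all libraries. A fit without WT A compares Eed cKO with WT B alone, the library in which these markers summed to 2.84% of the WT mean.

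**Figure D4:**
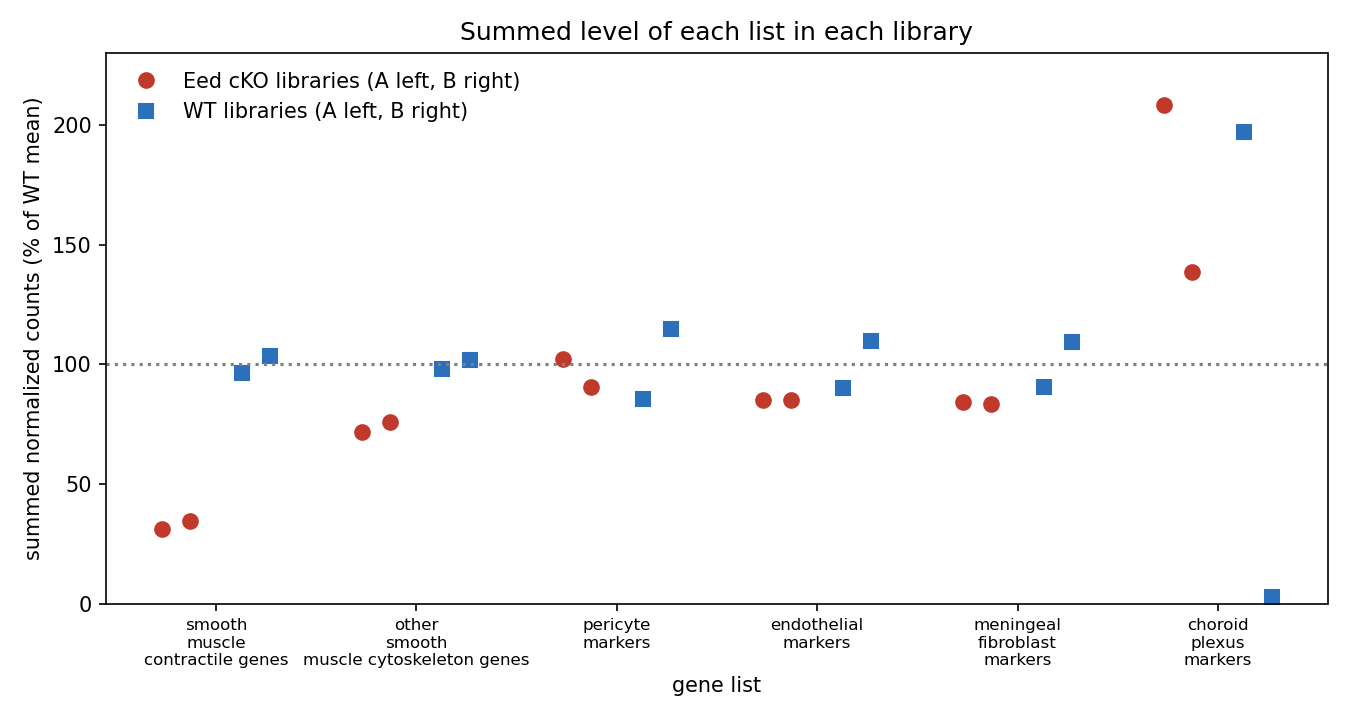
Summed normalized counts of 6 gene lists in each library, as a percentage of the WT mean, with Eed cKO libraries as red circles left of WT libraries as blue squares. The contractile genes stand at 31.3% and 34.7% in Eed cKO. The pericyte list, with Rgs5 a large part of its sum, overlaps between the groups. The choroid plexus list, mostly Ttr in the other libraries, drops to 2.84% in WT B.

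Genes averaging 50 or more normalized counts were ranked by the distance of their centred log2 profile over the 4 libraries from the mean profile of the 10 contractile genes. The nearest 5 of 12660 were Tinagl1, Eln, Sema3c, Lox and Aoc3, at distances from 0.0998 to 0.153. Tinagl1, a secreted matrix-associated protein, had 58 and 66 counts in Eed cKO against 225 and 220 in WT. Eln, which encodes elastin, had 1626 and 1894 counts in Eed cKO against 6492 and 6756 in WT. Sema3c, a secreted semaphorin, had 301 and 379 counts in Eed cKO against 1219 and 1332 in WT. These 3 stood between 26.8% and 28.1% of WT. Lox, which cross-links elastin and collagen, had 38 and 42 counts in Eed cKO against 138 and 151 in WT, and Aoc3, an amine oxidase of vessel walls, had 37 and 51 against 139 and 150. With 4 libraries in 2 groups, such a distance mostly measures the size of the genotype difference, and it is given as a description.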

How the data were processed

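Gene-level RNA-seq of the dentate gyrus was analysed from 1 table that the authors deposited, and the 10 genes and all lists were chosen with earlier results of these data known. Per the submitters' processing notes, HISAT2 2.1.0, DESeq2 1.2.0 and GRCm38 were used. The counter, its strand use and the gene models were not given in the sources used here. The columns are, per the file headers, the authors' normalized signal averaged within each group, log2 fold changes with standard errors, a Wald score, and raw and adjusted p-values. Each deposited group signal is a mean of 2 counts divided by size factors, so whole reads were recovered from its steps for 100% of 18042 genes (tolerance 1e-08). Their replicate numbers are unknown. Groups come from the sample titles, and replicates are described as biological in the design text.

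limma 3.58.1 with an intensity trend was fitted to log2(normalized count + 1) of all 15020 genes in which 2 or more libraries reached 10 normalized counts, with genotype as the only term and Benjamini-Hochberg adjustment over all of them. This scale understates changes of low genes. Percentages of WT are ratios of mean normalized counts, while intervals of percentages come from the fitted log2 scale. edgeR 4.0.16 and DESeq2 1.42.0 on the recovered counts, TMM scaling, pseudocounts of 0.5 and 5, no filter and a filter of 50, and leaving out each library were alternatives. The fits were also run on simulated counts, with changes planted only in genes averaging 50 or more normalized counts. That run does not bear on genes with fewer counts, and its outcome is not given here. Coordinates and exon lengths are from GENCODE M21 (GRCm38). Genes named outside the 10 were those with the smallest p among called genes of each list (up to 3), or the smallest p where none was called. The nearest profiles and Eed were also named. Acta1, Actb, Myh9, Srf, Myocd, Rgs5, Prox1, Xist, Myod1, Myog, Pcsk7, Slc4a5, Ppp1cb, Pecam1, Ocln, Vtn, Ttn and the remaining called meningeal genes were named after their values were seen. Ratios to cell type lists were likewise added afterwards.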

Additional observations from a re-analysis of the deposited data

How the results depend on the processing

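With all libraries kept, the fold change of each of the 10 contractile genes stayed negative, wherever it could be tested, under edgeR, DESeq2, TMM scaling, both other pseudocounts and both other filters. The same 8 genes were called lower under edgeR (2.87% of all tested genes called lower), DESeq2 (3.44%), TMM scaling and both pseudocounts. Without a filter on low counts Actg2 was not called (adjusted p = 0.0587), and the calls over all 18042 genes were 271 higher and 202 lower. With a filter of 50 counts, 7 of the genes could be tested and 5 were called lower, fewer by construction. Leaving out 1 library gave between 2 and 7 contractile genes called lower (without Eed cKO A 2 in limma and 3 in edgeR, without Eed cKO B 2 and 4). Over all genes, between 0 and 910 were called higher and between 7 and 813 lower. Without Eed cKO A these were 0 higher and 7 lower in limma, and 104 and 91 in edgeR. Without Eed cKO B they were 9 and 22 in limma, and 83 and 63 in edgeR, and without WT A 858 were higher in limma. With all libraries, limma called 532 higher and 435 lower. Des was called lower in edgeR without WT A (adjusted p = 0.0456). The fold change of Ttr was reversed without WT B, to -0.18 in limma and -0.14 in edgeR on the log2 scale, where all libraries gave 3.93. No paired analysis was possible because the recovered libraries carry no replicate number. With 2 libraries a group, leaving out 1 leaves a lone library that is assumed to vary like the other group. The low reads of Cnn1, Tagln and Actg2 in Eed cKO limit the precision of their fold changes.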

Other observations

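Of 33 genes of striated muscle listed, 29 were in the table and 18 were tested, of which 2 rose, none fell and 16 did not pass in limma at an adjusted p of 0.05. The list summed to 749 and 708 counts in Eed cKO A and B, against 583 and 501 in WT A and B. Mylk2, the light chain kinase of skeletal muscle, had 38 and 25 counts in Eed cKO against 1 and 1 in WT (limma, adjusted p = 0.0120), and it was over the test's minimum through the Eed cKO libraries alone. Myh6, the alpha heavy chain of cardiac myosin, had 149 and 115 counts in Eed cKO against 63 and 66 in WT (limma, 2.06-fold, adjusted p = 0.0379), and limma lost this call whichever 1 of the 4 libraries was left out, and with no filter on low counts (adjusted p = 0.0716). Without WT B, limma and edgeR called 1 gene of the list lower, Ttn, which encodes titin. With Eed cKO A or Eed cKO B left out, Mylk2 could not be tested. Myod1 and Myog, which specify skeletal muscle, had between 0 and 3 counts in each library.

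Blood cell markers gave no call among 5 tested in limma, and the member with the smallest p was Alas2, the first enzyme of heme synthesis in red cells. It had 55 and 47 counts in Eed cKO against 83 and 141 in WT (limma, adjusted p = 0.0922), and it was called lower in limma and edgeR without WT A.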
